A study of Drosophila melanogaster with 36 samples.

Results

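Ribosomal protein genes of the cytosolic ribosome were compared between adult flies of 3 Drosophila melanogaster strains. A gene was included when its current symbol in the array's probe table began with RpL or RpS and a digit, or with RpLP, and RpS3A was left out. These criteria gave 38 genes out of 10796 genes named on the array. A RefSeq gene table listed 91 such symbols, and the others, RpS6 among them, were not analysed here. The strains were Antennapedia[73b] (Antp73b), apterous[56f] (ap56f) and the wild type Oregon[R] (OregonR). Antennapedia is a homeotic gene that sets the identity of thoracic segments, and apterous encodes a LIM homeodomain factor needed for wing development. All flies were adults from a commercial supplier, and their age, sex and number were not given in the sources used here. Each array paired Cy3-labelled and Cy5-labelled cDNA made from poly(A)-selected mRNA of whole flies. There were 36 arrays in 9 groups of 4. Antp73b and OregonR were paired in both dye orders, ap56f and OregonR in both, and Antp73b and ap56f in both, which gave 24 arrays of 2 strains, and each strain was also hybridised against itself on 4 arrays, which gave 12.

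Ribosomal proteins assemble with ribosomal RNA into the small and large subunits that read mRNA and join amino acids. Cells need nearly all of them in equal number, and in flies the loss of 1 gene copy of many of them gives the Minute phenotype of slow growth and short bristles. Their mRNAs are among the most abundant in growing cells. In flies, several ribosomal proteins are encoded by a pair of paralogs, of which 1 is often used mainly in the germ line. Of the 38 genes, 22 belonged to the large subunit by symbol and 16 to the small subunit. Among them were the 3 stalk proteins RpLP0, RpLP1 and RpLP2, which recruit the elongation factors, the ubiquitin fusion genes RpL40 and RpS27A, and 8 second copies of a paralog pair. RpL7-like, RpL24-like and RpLP0-like are homologues of yeast ribosome assembly factors and not of mature subunits.

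The values were log2 ratios of channel 1 over channel 2, as coded here from signed fold ratios, after each array was centred on its median. The labels do not state which channel a positive ratio favours, so differences are reported by their sign, as plus or minus. Under the coding used here a plus difference would stand for more transcript in the first-named strain, and under the opposite coding for less. The ratios hold no level for either strain, so levels of different genes could not be compared. Of the 38 genes, 37 had a value on all 36 arrays, and RpS27A had one on 24, which its fit used. A difference is called when its Benjamini-Hochberg adjusted p over 13296 features, in a limma fit with a dye term to all arrays, was under 0.05. The number of RNA extractions behind the arrays was not given, so these p-values measure only how far arrays differ from each other, and that spread may be technical. In whole-fly RNA, fewer cells of a type and less RNA per cell cannot be told apart. Duplicate spots of an array correlated at 0.19 to 0.83 over all elements, with a median of 0.58. Of the deposited values 19.1% were exactly 1 or -1, and the smallest log2 step next to a fold of 1 was 0.14. Some gaps between dye orders given below are smaller than this step of a single spot.

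Across all 36 arrays the ribosomal protein genes as a group lay above their array's median in nearly every hybridisation, whichever strain was in channel 1. The median of the 38 genes was above 0 on 33 arrays, at 0 on 2 and below 0 on 1. It ranged between -0.06 and 0.28. The group median averaged 0.17 ± 0.081 (SD, n = 24) on arrays of 2 strains, and 0.06 ± 0.058 (SD, n = 12) on self-hybridised arrays. With Antp73b in channel 1 and OregonR in channel 2 it averaged 0.10 ± 0.039, and with OregonR in channel 1 and Antp73b in channel 2 0.20 ± 0.048 (SD, n = 4 each). With ap56f in channel 1 and OregonR in channel 2 it averaged 0.20 ± 0.063, and in the reverse order 0.15 ± 0.075 (SD, n = 4 each). With Antp73b in channel 1 and ap56f in channel 2 it averaged 0.09 ± 0.11, and in the reverse order 0.24 ± 0.038 (SD, n = 4 each). Antp73b over OregonR arrays and their reverse met at 0.14, and the other pairs of dye orders overlapped. For Antp73b and ap56f the overlap came through 1 array of Antp73b over ap56f at 0.23, above the lowest array of the reverse order at 0.20.

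**Figure D1:**
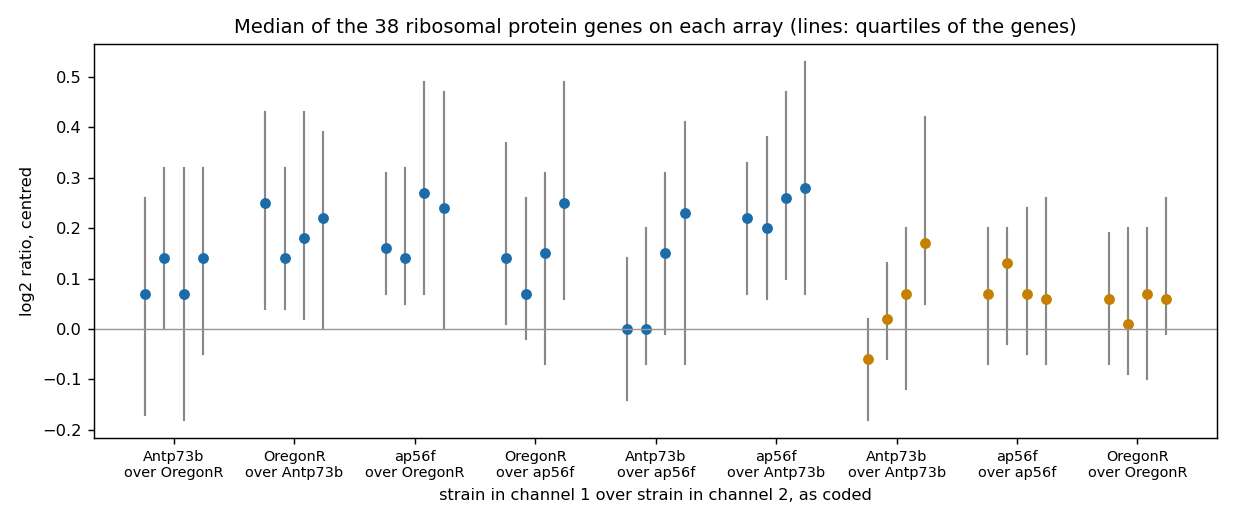
Median log2 ratio of the 38 ribosomal protein genes on each array (y axis, centred log2 ratio), by the strain in channel 1 over the strain in channel 2 (x axis); each point is 1 array, blue for 2 strains and orange for self-hybridised arrays, and lines span the quartiles of the genes. The ap56f over Antp73b arrays lie between 0.20 and 0.28, and the 12 self-hybridised arrays between -0.06 and 0.17.

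The part of each ratio that did not depend on strain, the dye offset, was larger than each strain difference for 17 of the 38 genes. By limma, 25 of the 38 genes had a called dye offset, 23 of them plus and 2 minus. Among all 13296 features 61.4% were called, 30.1% plus and 31.3% minus. The members' share of 65.8% was thus near that of the array as a whole, while their sides were not evenly split. RpS7, a protein of the small subunit, had the largest offset at 0.53 (SE 0.034, limma adjusted p = 8.7e-18). On the 12 self-hybridised arrays its ratio had a lowest value of 0.14, a median of 0.47 and a highest of 0.72, so all 12 were on the plus side. RpL39, a short protein lining the exit tunnel, had an offset of 0.52 (SE 0.041, limma adjusted p = 6.7e-15) and self-hybridised ratios with a lowest value of 0.11, a median of 0.37 and a highest of 0.76. RpS18, RpL32 and RpL37-1 followed with offsets of 0.38, 0.37 and 0.33. The 2 genes on the minus side were RpL37A at -0.15, with no self-hybridised array on the plus side, and RpS10a at -0.08. In 17 members the offset was larger in size than each of the 3 strain differences, a count not taken over all features. Over all features the median size of the offset was 0.097. That of the strain differences was 0.076 in Antp73b against OregonR, 0.071 in ap56f against OregonR and 0.068 in Antp73b against ap56f.

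The offset estimated from the 24 arrays of 2 strains had the same side as the mean of the 12 self-hybridised arrays in 29 of the 38 genes. Over these 38 genes, which shared arrays, the correlation of both was 0.84, and over all 13296 features it was 0.89. The median offset of the members was 0.16 on arrays of 2 strains and 0.04 on self-hybridised arrays. The difference between the 2 kinds of array, fitted by limma, was above 0 in 34 of the 38 genes, with a median of 0.10, against 55.2% of all features, with a median of 0.01. None of the 38 was called for this difference, and 0.0150% of all features were. An unadjusted p under 0.05 was seen in 10 members, and the share of all features at that threshold was not counted. RpS20 had the largest value, 0.34 (SE 0.087, limma adjusted p = 0.082). Self-hybridised arrays carry the numbers 38 to 49 in the labels and arrays of 2 strains the numbers 50 to 73, so the kind of array and the range of array numbers cannot be told apart.

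**Figure D2:**
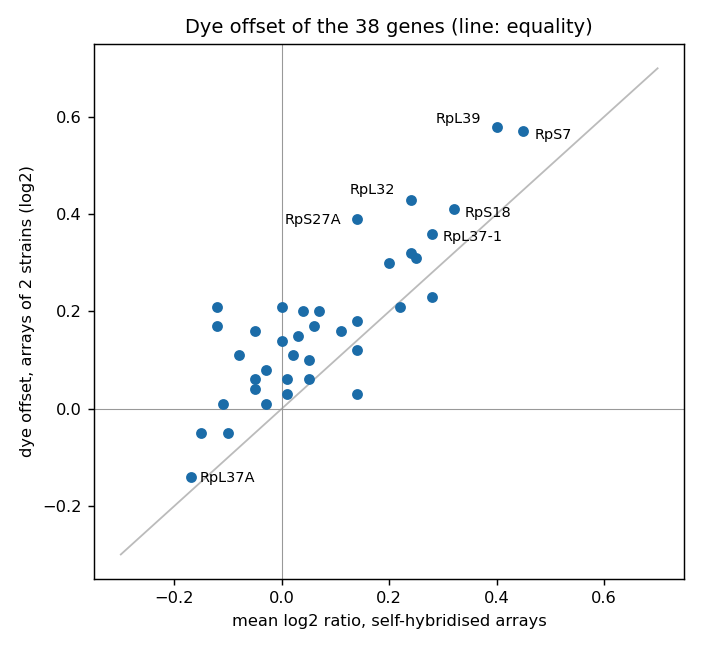
Dye offset of each of the 38 genes on arrays of 2 strains (y axis, log2) against its mean log2 ratio on the self-hybridised arrays (x axis); each point is a gene and the line marks equality. RpS7 and RpL39 lie farthest out, and most genes lie above the line.

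In Antp73b against OregonR, the strain differences of the 38 genes were small and mostly on the minus side. RpL3, RpS18, RpL23, RpS26 and RpLP2 were called minus, and RpL17 and RpS12 plus. The differences of the 38 genes ran between -0.22 and 0.21 with a median of -0.07, and 30 of them (78.9%) were below 0, against 49.2% of all features, whose median was 0. The 7 calls made up 18.4% of the members, and 23.3% of all features were called, 11.7% plus and 11.6% minus. The minus calls alone made up 13.2% of the members. The share of calls was therefore no higher than the background. The unadjusted p was under 0.05 for 14 members, and the share of all features under it was not counted. The largest fold was 1.17, and no end of a 95% confidence interval of a member reached beyond 0.31 in size, a 1.24-fold difference. In a fit to the 8 direct arrays alone, 1 of the 38 members was called minus and 1 plus. Of 13296 features, 850 were called minus and 956 plus.

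**Figure D3:**
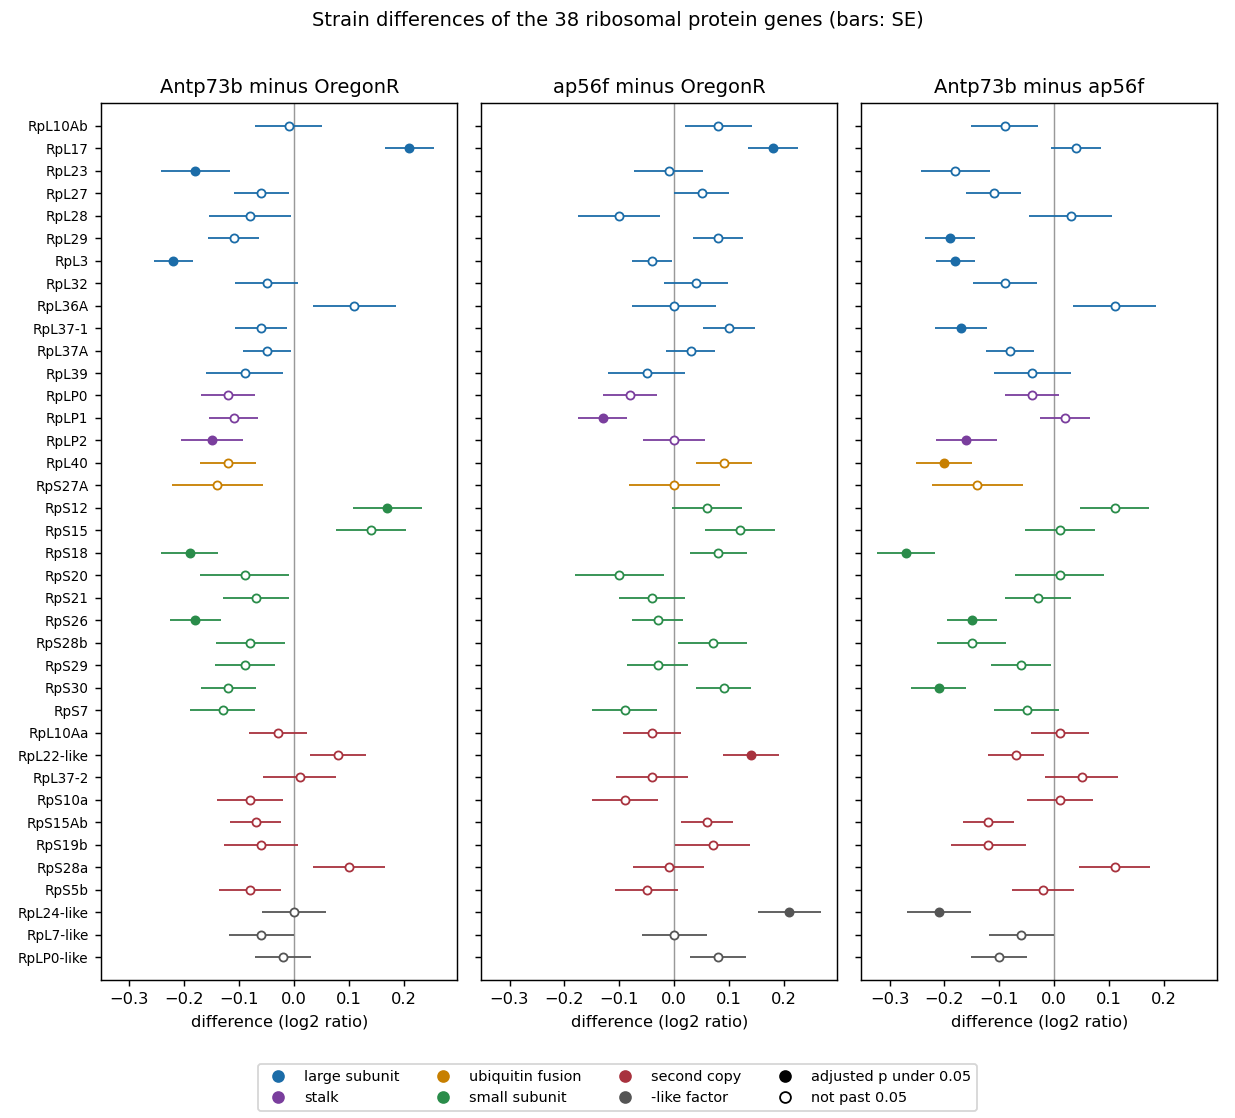
Strain difference of each of the 38 ribosomal protein genes (x axis, log2 ratio) in the 3 comparisons, with genes listed by role down the page; points are limma estimates from 36 arrays (24 for RpS27A), bars are standard errors, and filled points had an adjusted p under 0.05. All called points of Antp73b minus ap56f lie left of 0, while both comparisons with OregonR have called points on both sides.

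Of the large-subunit proteins, RpL3, which reaches to the peptidyl transferase centre, differed most between Antp73b and OregonR. With Antp73b in channel 1 the RpL3 ratio was -0.24, -0.10, -0.29 and -0.13, and with OregonR in channel 1 it was 0.40, 0.32, 0.31 and 0.39. The 2 dye orders did not overlap, and all 4 arrays of each lay on their own side of 0. The fitted difference was -0.22 (SE 0.036, limma adjusted p = 2.7e-06). RpL17, which lines the exit tunnel, lay on the other side: with Antp73b in channel 1 its ratio was 0.49, 0.32, 0.40 and 0.48, and with OregonR in channel 1 it was 0.03, 0.03, -0.07 and -0.09. These also did not overlap, and the difference was 0.21 (SE 0.045, limma adjusted p = 2e-04). Both genes kept their call in all 19 alternative settings and without each array in turn. Of these 19, 1 left out an element of RpL3. That setting was chosen after the element's values were seen and took no value from any other gene. RpL23, at the interface between the subunits, had ratios of -0.40, -0.03, -0.23 and 0.06 with Antp73b in channel 1 and 0.07, 0.15, 0.12 and 0.44 with OregonR in channel 1. They were apart by only 0.01, and the difference of -0.18 (SE 0.063, limma adjusted p = 0.03) lost its call without array 53, 62 or 64 (adjusted p up to 0.089). The other 9 large-subunit genes of this group were not called, with differences between -0.11 for RpL29 and 0.11 for RpL36A.

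The stalk proteins all lay on the minus side in Antp73b against OregonR. RpLP2 had ratios of 0.07, 0.07, -0.07 and -0.26 with Antp73b in channel 1 and 0.44, 0.37, 0.14 and 0.43 with OregonR in channel 1, which did not overlap. Its difference was -0.15 (SE 0.056, limma adjusted p = 0.04), and the call was lost without each of 11 of the 36 arrays (adjusted p up to 0.10). RpLP0, the scaffold of the stalk, had a difference of -0.12 (limma adjusted p = 0.074) and RpLP1 -0.11 (limma adjusted p = 0.072). The ubiquitin fusion genes, whose product is cut into ubiquitin and a ribosomal protein, were not called: RpL40 had a difference of -0.12 and RpS27A of -0.14, with 95% confidence intervals of -0.22 to -0.02 and -0.31 to 0.03. The interval of RpL40 left out 0 before adjustment only.

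Of the small-subunit proteins, RpS18, which lies in the head of the subunit and touches the large one, had ratios of 0.52, 0.32, 0.26 and 0.07 with Antp73b in channel 1 and 0.87, 0.54, 0.63 and 0.63 with OregonR in channel 1. The groups were apart by 0.02 and both lay above 0, as the dye offset of this gene was 0.38. Its difference was -0.19 (SE 0.052, limma adjusted p = 0.0054), lost under 4 of 19 alternatives (adjusted p up to 0.31). RpS26, at the mRNA exit channel, had ratios of -0.19, -0.07, -0.12 and 0.07 with Antp73b in channel 1 and 0.01, 0.00, 0.31 and 0.22 with OregonR in channel 1, which overlapped. Its difference in the fit to all 36 arrays was -0.18 (SE 0.046, limma adjusted p = 0.0027), lost under 3 of 19 alternatives. With the 8 direct arrays alone it was -0.11 and not called (limma adjusted p = 0.32). RpS12, known in flies for its part in cell competition, was on the plus side. Its ratios were 0.62, 0.68, 0.54 and 0.37 with Antp73b in channel 1 and 0.40, -0.06, 0.13 and 0.26 with OregonR in channel 1, and they overlapped through 1 array of each order. The difference was 0.17 (SE 0.063, limma adjusted p = 0.038), and the call was lost without array 51, 55, 61, 62, 63, 64, 71 or 73 (adjusted p up to 0.092). The other small-subunit genes were not called, with differences between -0.13 for RpS7 and 0.14 for RpS15. On the direct arrays the dye orders did not overlap for 1 member in the plus direction and 5 (13.2%) in the minus direction. Of all features, 9.09% and 8.57% did not overlap (17.7% in all).

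**Figure D4:**
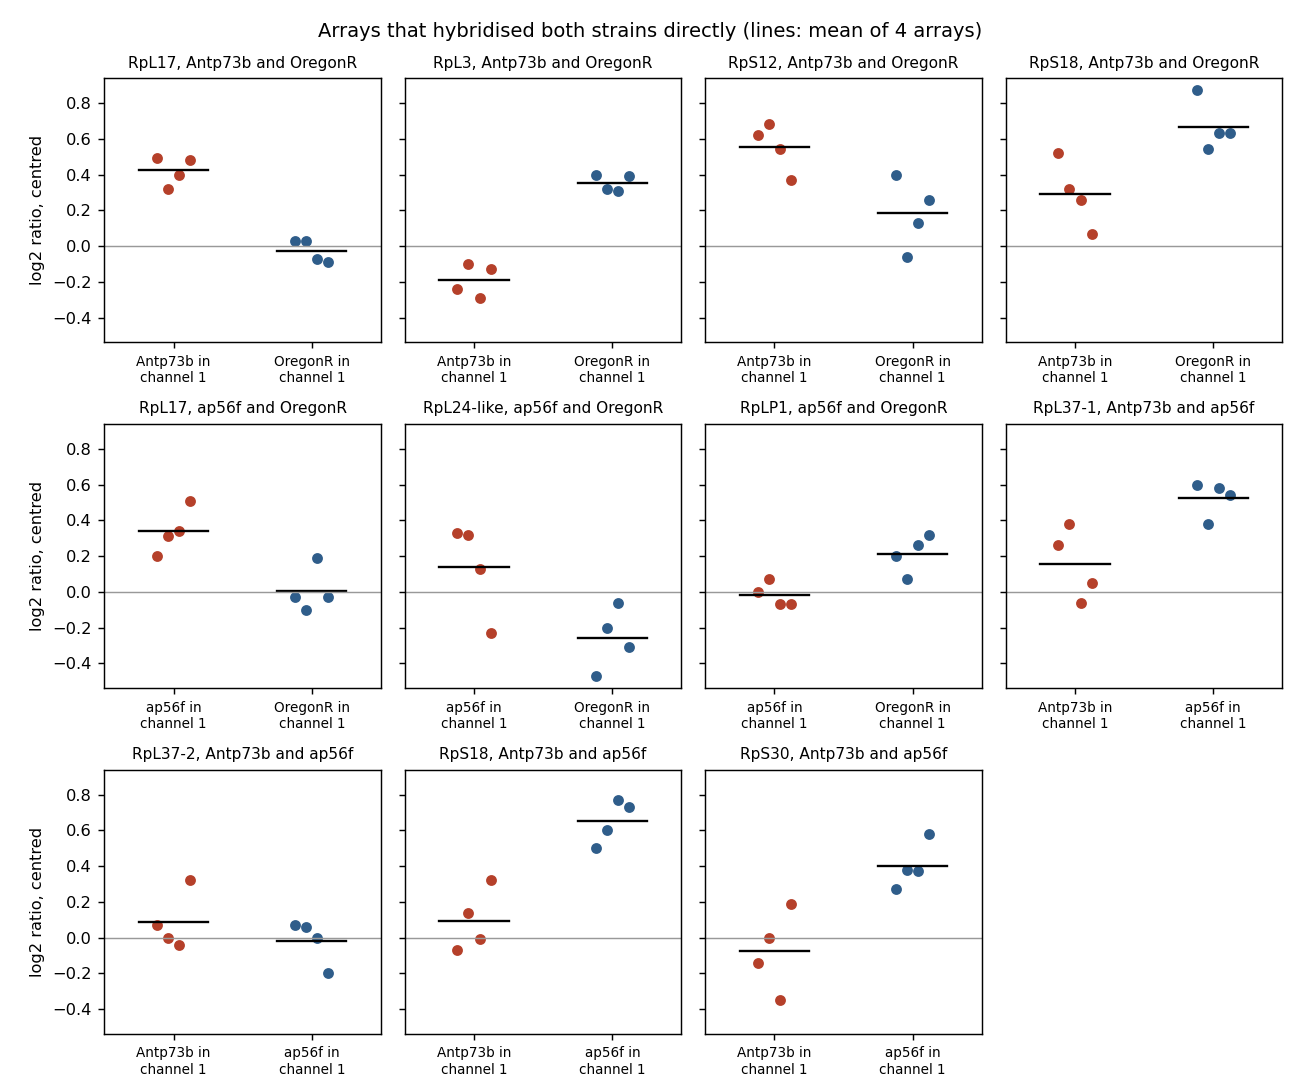
Centred log2 ratios on the arrays that hybridised both strains directly (y axis), for the members with the largest called differences and for RpL37-1 and RpL37-2, with the strain in channel 1 on the x axis; points are arrays and lines are means of 4. RpL3 and RpL17 of Antp73b and OregonR do not overlap between dye orders, while RpS12 and RpL24-like do.

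In ap56f against OregonR, 4 of the genes were called and neither side prevailed. RpL24-like, RpL17 and RpL22-like were called plus and RpLP1 minus, which is 4 of 38 or 10.5%, against 15.9% of all features (8.45% plus, 7.48% minus). The unadjusted p was under 0.05 for 5 members, and the share of all features under it was not counted. The differences ran between -0.13 and 0.21 with a median of 0.00, and 17 of the 38 were below 0. No end of a 95% confidence interval of a member reached beyond 0.33 in size, a 1.26-fold difference. In a fit to the 8 direct arrays alone, 0 members were called on either side, against 288 minus and 456 plus among 13296 features. No small-subunit gene was called, and their differences lay between -0.10 and 0.12. On the direct arrays the dye orders did not overlap for RpL17 in the plus direction and RpL39 in the minus direction, against 6.76% and 5.73% of all features (12.5% in all).

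RpL17 had ratios of 0.20, 0.31, 0.34 and 0.51 with ap56f in channel 1, and of -0.03, -0.10, 0.19 and -0.03 with OregonR in channel 1. The dye orders were apart by 0.01, and the difference was 0.18 (SE 0.045, limma adjusted p = 0.0036). The call was lost under 4 of 19 alternatives (limma adjusted p up to 0.28), all with fewer arrays. These were the 8 direct, first 2, last 2 and even-numbered arrays, with values of 0.17, 0.17, 0.18 and 0.13. RpL17 lay on the same side as in Antp73b against OregonR, a comparison that shares the OregonR strain and the same fit. RpL24-like, the homologue of a yeast factor of large-subunit assembly, had ratios of 0.33, 0.32, 0.13 and -0.23 with ap56f in channel 1, and of -0.47, -0.20, -0.06 and -0.31 with OregonR in channel 1. They overlapped through 1 ap56f array, and the difference was 0.21 (SE 0.058, limma adjusted p = 0.008). This call was lost with the 8 direct arrays (0.20, limma adjusted p = 0.15), with the last 2 arrays of each group (0.10, limma adjusted p = 0.60) and with even-numbered arrays (0.14, limma adjusted p = 0.26). In Antp73b against OregonR this gene had a difference of 0.00. RpL22-like, a paralog known from the male germ line, had ratios of 0.20, 0.26, -0.06 and 0.31 with ap56f in channel 1 and of -0.13, 0.07, -0.53 and 0.32 with OregonR in channel 1. These overlapped, and the difference of 0.14 (SE 0.051, limma adjusted p = 0.046) lost its call without each of 17 of the 36 arrays (adjusted p up to 0.17).

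RpLP1 of the stalk had ratios of 0.00, 0.07, -0.07 and -0.07 with ap56f in channel 1, and of 0.20, 0.07, 0.26 and 0.32 with OregonR in channel 1. The groups met at 0.07, and the difference was -0.13 (SE 0.045, limma adjusted p = 0.049). The call was lost without each of 24 of the 36 arrays (adjusted p up to 0.097) and under 13 of 19 alternative settings. RpLP0 had a difference of -0.08 (limma adjusted p = 0.32) and RpLP2 of 0.00 (limma adjusted p = 0.97) and neither was called; differences between the stalk genes were not tested. RpL39, whose ratios were 0.50, 0.49, 0.53 and 0.50 with ap56f in channel 1 and 0.88, 0.54, 0.97 and 0.76 with OregonR in channel 1, did not overlap, yet its difference in the fit to all arrays was -0.05 (SE 0.070, limma adjusted p = 0.72). It is named here because its arrays were seen not to overlap.

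In Antp73b against ap56f, all calls among the ribosomal protein genes lay on the minus side. RpS18, RpS30, RpL24-like, RpL40, RpL29, RpL3, RpL37-1, RpLP2 and RpS26 were called, which is 9 of 38 or 23.7%, against 15.7% of all features, 8.33% plus and 7.38% minus. No member was called on the plus side in the fit to all arrays, in any of the 19 alternatives or without any array. The median of the 38 differences was -0.08, their range -0.27 to 0.11, and 27 of them (71.1%) were below 0, against 50.1% of all features. The unadjusted p was under 0.05 for 14 members, and the share of all features under it was not counted. The RpL3 call rested on 1 of its 4 elements, and without that element 8 members were called. Without array 73 the call of RpS26 was lost (limma adjusted p = 0.068), and without each of 13 arrays that of RpLP2 (limma adjusted p up to 0.12). On the direct arrays 10 members (26.3%) did not overlap in the minus direction and 0 in the plus direction. Of all features, 6.42% and 7.78% did not (14.2% in all). These 10 included RpL3, and RpS27A with a value on 2 arrays of 1 dye order and 3 of the other. In a fit to the 8 direct arrays alone, 4 of the 38 members were called minus. Of 13296 features, 389 were called minus and 576 plus. The largest fold was 1.21, and no end of a 95% confidence interval reached beyond 0.38 in size, a 1.3-fold difference.

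RpS18 had ratios of -0.07, 0.14, -0.01 and 0.32 with Antp73b in channel 1, and of 0.50, 0.60, 0.77 and 0.73 with ap56f in channel 1. The dye orders did not overlap, and the difference was -0.27 (SE 0.052, limma adjusted p = 9e-05). Its call was kept without each array in turn and was lost among the alternatives only without a dye term (limma adjusted p = 0.15). RpS30, made as a fusion with a ubiquitin-like protein, had ratios of -0.14, 0.00, -0.35 and 0.19 with Antp73b in channel 1, and of 0.27, 0.38, 0.37 and 0.58 with ap56f in channel 1. They did not overlap either, and the difference was -0.21 (SE 0.050, limma adjusted p = 0.0017). The call was lost under 2 of 19 alternatives (limma adjusted p up to 0.21), both with fewer arrays. These were the last 2 and odd-numbered arrays, with values of -0.23 and -0.15. RpS26 had ratios of -0.20, -0.07, -0.18 and -0.17 with Antp73b in channel 1, all below 0, and of 0.27, 0.19, 0.26 and 0.38 with ap56f in channel 1, all above 0. Its direct arrays were thus well apart, while the fit to all 36 arrays gave -0.15 (SE 0.046, limma adjusted p = 0.022). The first 2 arrays of each group gave -0.10, not called (limma adjusted p = 0.31). In all, the RpS26 call was lost under 3 of 19 alternatives (limma adjusted p up to 0.45).

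RpL40, the ubiquitin fusion gene of the large subunit, had ratios of 0.07, 0.14, 0.26 and -0.16 with Antp73b in channel 1, and of 0.55, 0.38, 0.68 and 0.63 with ap56f in channel 1. The groups did not overlap and the difference was -0.20 (SE 0.051, limma adjusted p = 0.0029), lost under 5 of 19 alternatives (adjusted p up to 0.20). The other ubiquitin fusion gene, RpS27A, had a difference of -0.14 (SE 0.083, limma adjusted p = 0.30) from a value on 2 direct arrays with Antp73b in channel 1 and on 3 with ap56f in channel 1. RpL29 had ratios of -0.07, -0.26, -0.07 and 0.00 with Antp73b in channel 1, and of 0.27, 0.38, 0.13 and 0.18 with ap56f in channel 1. They did not overlap, and the difference was -0.19 (SE 0.046, limma adjusted p = 0.0019). The call was lost under 3 of 19 alternatives (limma adjusted p up to 0.24), all with fewer arrays. These were the 8 direct, last 2 and even-numbered arrays, with values of -0.17, -0.16 and -0.18. RpL24-like differed by -0.21 (SE 0.058, limma adjusted p = 0.0091), with ratios of -0.14, -0.32, 0.13 and -0.56 with Antp73b in channel 1 and of 0.07, 0.60, -0.13 and 0.33 with ap56f in channel 1. These overlapped, and the call was lost under 3 of 19 alternatives. With even-numbered arrays the value was -0.09 (limma adjusted p = 0.56). RpLP2 differed by -0.16 (SE 0.056, limma adjusted p = 0.046), and its direct arrays overlapped too.

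RpL3 was the member measured by the most array elements, 4, and 1 of them did not follow the rest. An element here is a probe printed as a pair of spots. The probe table lists all 4 as RpL3 and gives no accession for them, and probe sequences were not analysed here. In Antp73b against OregonR the 4 elements gave -0.26, -0.22, -0.23 and -0.18, each called by limma over 14866 elements, of which 22.5% were called, 11.4% plus and 11.1% minus. In ap56f against OregonR the first 3 gave -0.29 (limma adjusted p = 1e-05), -0.22 (limma adjusted p = 0.0032) and -0.18 (limma adjusted p = 0.021). The fourth gave 0.51 (SE 0.059, limma adjusted p = 2.6e-09). In Antp73b against ap56f the first 3 gave 0.02, 0.00 and -0.05, none called, and the fourth gave -0.69 (SE 0.059, limma adjusted p = 2e-13). Of all elements, 15.2% were called in ap56f against OregonR (8.13% plus, 7.10% minus) and 15.0% in Antp73b against ap56f (8.13% plus, 6.85% minus).

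The separation of the fourth RpL3 element was present on every direct array with ap56f. With ap56f in channel 1 and OregonR in channel 2 its ratio was 0.33, 0.26, 0.55 and 0.47, and with OregonR in channel 1 it was -0.67, -0.74, -0.38 and -0.38. With Antp73b in channel 1 and ap56f in channel 2 it was -0.88, -0.76, -0.47 and -1.3, and with ap56f in channel 1 it was 0.74, 0.44, 0.59 and 0.56. With Antp73b in channel 1 and OregonR in channel 2 it was -0.32, -0.38, 0.00 and -0.14, and with OregonR in channel 1 it was -0.20, 0.00, 0.32 and 0.20, so that without ap56f the dye orders overlapped. Element 1 of the same gene gave -0.19, -0.26, -0.07 and -0.21 with ap56f in channel 1 and 0.20, 0.20, 0.32 and 0.26 with OregonR in channel 1, the opposite signs on all 8 arrays. In ap56f against OregonR the mean of the 4 elements, -0.04, therefore joined 3 minus calls and 1 plus call, and in Antp73b against ap56f the call of the mean rested on 1 element. Without the fourth element, a setting chosen after its values were seen, RpL3 was called minus in ap56f against OregonR (-0.23, limma adjusted p = 4.8e-05) and was not called in Antp73b against ap56f (-0.01, limma adjusted p = 0.91). Of 1210 genes with several tested elements, 81 had at least 2 called elements in ap56f against OregonR, and 7 of these had calls on both sides. RpL3 was the only ribosomal protein gene among the 7.

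**Figure D5:**
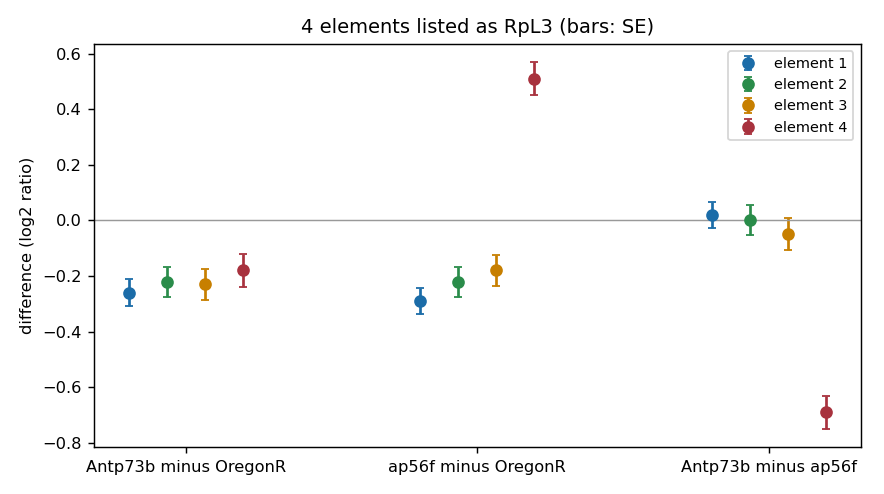
Strain difference (y axis, log2 ratio) of the 4 array elements listed as RpL3 in the 3 comparisons (x axis); points are limma estimates from 36 arrays and bars are standard errors. The 4 elements lie together between -0.26 and -0.18 in Antp73b minus OregonR, and element 4 lies apart at 0.51 and -0.69 in the comparisons with ap56f.

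Other members with several elements differed less among themselves. Both elements of RpL17 were called plus in Antp73b against OregonR (0.22 and 0.21) and in ap56f against OregonR (0.15 and 0.20). Of the 2 elements of RpL23, 1 was called in Antp73b against OregonR (-0.28, limma adjusted p = 0.0028) and the other was not (-0.09, limma adjusted p = 0.43). The elements of RpL28 were not called in any comparison, and 1 of them had a value on 22 arrays. RpS12 had a second element with a value on 3 arrays, which entered the gene's mean there and was not tested alone. The other 33 members had 1 element each.

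Paralog pairs were measured as separate genes, and whether near-identical copies share signal was not tested. None of the 8 second copies was called in Antp73b against OregonR (median -0.04, range -0.08 to 0.10) or in Antp73b against ap56f (median -0.01, range -0.12 to 0.11), and RpL22-like alone was called in ap56f against OregonR. RpL37-1 was called in Antp73b against ap56f at -0.17 (SE 0.047, limma adjusted p = 0.0096), while its copy RpL37-2 had 0.05 (SE 0.066, limma adjusted p = 0.71). The RpL37-1 call was lost under 6 of 19 alternatives (limma adjusted p up to 0.38). With the first 2 arrays of each group its value was -0.10 (limma adjusted p = 0.24). RpL37-1 had ratios of 0.26, 0.38, -0.06 and 0.05 with Antp73b in channel 1 and of 0.60, 0.38, 0.58 and 0.54 with ap56f in channel 1, which met at 0.38 after rounding and did not overlap before it. RpL37-2 had ratios of 0.07, 0.00, -0.04 and 0.32 with Antp73b in channel 1 and of 0.07, 0.06, 0.00 and -0.20 with ap56f in channel 1, which overlapped. The difference between the copies was not tested.

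RpS28b and its copy RpS28a lay on opposite sides in Antp73b against ap56f, at -0.15 (95% confidence interval -0.28 to -0.03, limma adjusted p = 0.094) and 0.11 (-0.02 to 0.24, limma adjusted p = 0.27), and neither was called. In Antp73b against OregonR they had -0.08 and 0.10, and in ap56f against OregonR 0.07 and -0.01. RpL10Aa and RpL10Ab had differences of -0.03 and -0.01 in Antp73b against OregonR, -0.04 and 0.08 in ap56f against OregonR, and 0.01 and -0.09 in Antp73b against ap56f, none called. RpLP0-like had -0.02, 0.08 and -0.10 in the same comparisons, and RpL7-like -0.06, 0.00 and -0.06. RpS5b and RpS19b, paralogs known from the female germ line, had -0.08 and -0.06 in Antp73b against OregonR. They had -0.05 and 0.07 in ap56f against OregonR, and -0.02 and -0.12 in Antp73b against ap56f. RpS15Ab had -0.07, 0.06 and -0.12 in the 3 comparisons, and RpS10a -0.08, -0.09 and 0.01. None of these reached the threshold.

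RpL32, also known as rp49 and widely used as a reference gene in fly expression work, was not called in any strain comparison. Its difference was -0.05 in Antp73b against OregonR (95% confidence interval -0.16 to 0.07), 0.04 in ap56f against OregonR (-0.07 to 0.16) and -0.09 in Antp73b against ap56f (-0.21 to 0.02). With Antp73b in channel 1 and OregonR in channel 2 the RpL32 ratio was 0.47, 0.48, 0.48 and 0.32, and with OregonR in channel 1 it was 0.71, 0.37, 0.68 and 0.58. All 8 values were above 0 in both dye orders, as were 11 of its 12 self-hybridised values, which had a lowest of -0.01, a median of 0.28 and a highest of 0.41. Its dye offset of 0.37 (SE 0.034, limma adjusted p = 1.1e-12) was larger than its largest strain difference.

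The remaining members were not called in any comparison. RpL27, RpL37A and RpL39 of the large subunit had differences of -0.06, -0.05 and -0.09 in Antp73b against OregonR, and RpL36A had 0.11 there and in Antp73b against ap56f (95% confidence interval -0.05 to 0.26). RpL28 had -0.08, -0.10 and 0.03 in the 3 comparisons. RpS7, RpS20, RpS21 and RpS29 of the small subunit had differences of -0.13, -0.09, -0.07 and -0.09 in Antp73b against OregonR and of -0.09, -0.10, -0.04 and -0.03 in ap56f against OregonR. RpS15 had 0.14 and 0.12 there (limma adjusted p = 0.12 and 0.20). A missed threshold does not show that these transcripts were equal: the median standard error of a member's difference was 0.057, and the SD between the 38 members was 0.10 in Antp73b against OregonR, 0.081 in ap56f against OregonR and 0.097 in Antp73b against ap56f.

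Other genes of the translation machinery were counted in the same fit, by lists chosen with earlier results of these data known. In Antp73b against OregonR 11.6% of all features were called minus and 11.7% plus. There, 14 of 58 tested mitochondrial ribosomal protein genes were called minus and 1 plus, with a median of -0.08, close to the -0.07 of the cytosolic genes. Of these, mRpL43 had -0.37 (SE 0.066, limma adjusted p = 1.7e-05) and mRpS7 0.34 (SE 0.044, limma adjusted p = 2e-08). Among 38 initiation factor genes, 6 were called minus and 1 plus (median -0.04), with eIF3c, a subunit of the factor that holds the small subunit, at -0.34 and eIF4G1, a scaffold of cap binding, at 0.23. Of 4 elongation factor genes 2 were called minus and 0 plus (median -0.15), among them eEF1gamma at -0.33. Of 32 genes of ribosome assembly and RNA polymerase I, 10 were called minus and 1 plus (median -0.08), with Non1, a GTPase of large-subunit assembly, at -0.54 and Nop60B, the pseudouridine synthase of ribosomal RNA, at -0.46. Rack1, a small-subunit protein that the symbol criteria leave out, had -0.23 (SE 0.048, limma adjusted p = 0.00021). Of 9 growth signalling genes, chico, an insulin receptor substrate, was the only one called, at 0.16.

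In ap56f against OregonR 15.9% of all features were called, 7.48% minus and 8.45% plus, against 23.3% in Antp73b against OregonR. There, 5 mitochondrial ribosomal protein genes were called minus and 2 plus (median -0.01). Also called were 1 initiation factor gene minus and 2 plus (median -0.01), and no elongation factor gene. Of the assembly genes 4 were called minus and 1 plus (median -0.01), with Non1 at -0.49 and Surf6 at 0.28, and of the growth signalling genes chico was called at 0.14. Rack1 had 0.00. In Antp73b against ap56f 7.38% of all features were called minus and 8.33% plus. In this comparison 8 mitochondrial ribosomal protein genes were called minus and 3 plus (median -0.05). Of the initiation factor genes 4 were called minus and 0 plus (median -0.04), and of the assembly genes 6 minus and 0 plus (median -0.06). Of the elongation factor genes 1 was called minus, eEF1delta at -0.16, and no growth signalling gene was called. Rack1 had -0.23 there (limma adjusted p = 0.00034). The comparisons share arrays through the common strains, so their counts are not independent.

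Among lists of genes that mark tissues of the adult fly, that of egg shell and yolk had a larger median difference than the ribosomal protein genes in each comparison. Of all features, 11.6% were called minus and 11.7% plus in Antp73b against OregonR. These shares were 7.48% and 8.45% in ap56f against OregonR, and 7.38% and 8.33% in Antp73b against ap56f. Of 15 genes of egg shell and yolk, 13 were called minus and 0 plus in Antp73b against OregonR (median -0.75), 15 and 0 in ap56f against OregonR (median -0.49), and 10 and 2 in Antp73b against ap56f (median -0.28). Of 23 genes of the ovary germ line, 16 were called minus and 0 plus (median -0.19), 10 and 0 (median -0.13), and 7 and 1 (median -0.08), in the same order of comparisons. Cp38, an egg shell gene, had -1.17, -0.80 and -0.37, and vas, a germ-line RNA helicase, had -0.56 in Antp73b against OregonR. Of 16 testis genes 6, 5 and 0 were called minus and 1, 0 and 2 plus (medians -0.05, -0.07 and 0.01). Of 14 accessory gland genes 7, 11 and 0 were called minus and 1, 1 and 6 plus (medians -0.23, -0.31 and 0.08), and of 14 muscle genes 3, 1 and 3 were called minus and 2, 1 and 3 plus (medians 0.04, 0.01 and 0.02). In Antp73b against ap56f the largest ribosomal protein difference, -0.27 for RpS18, was about as large as the median of the egg shell and yolk genes. The largest in Antp73b against OregonR was -0.22 for RpL3, and in ap56f against OregonR 0.21 for RpL24-like. Both were smaller in size than the median of the egg shell and yolk genes there. The part of these tissue markers in the differences of the ribosomal protein genes was not tested.

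Direct and indirect estimates were compared around the triangle of strains, as the direct difference of Antp73b and OregonR less those of ap56f and OregonR and of Antp73b and ap56f. By limma on the 24 arrays of 2 strains, none of the 38 ribosomal protein genes departed from closure (smallest adjusted p = 1). Nor did any of 13296 features (0%). An unadjusted p under 0.05 was seen in 2 members, a count not taken over all features. The departures of the members ran between -0.36 and 0.29. The lowest, -0.36, was that of RpS19b, whose Antp73b and OregonR arrays did not overlap (-0.01 ± 0.22 with Antp73b in channel 1 and 0.34 ± 0.16 with OregonR in channel 1, SD, n = 4 each), while its fitted difference was -0.06 (limma adjusted p = 0.61).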

How the data were processed

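Per the labels' protocols, poly(A)-selected mRNA of adult flies was made into Cy3 or Cy5 cDNA with random primers and hybridised to 2-colour arrays, which were scanned on a GenePix scanner. The sources used here do not say how signals were treated after scanning. In the deposited table, the authors gave 1 signed fold ratio of both channels per spot; this was read from the deposited values, of which 0 in 1059750 lay between -1 and 1, with a range of -11.2 to 9.9. Arrays had values for 26362 to 30716 of 31464 spots, and their number limits the precision.

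From these, log2 ratios were computed as the sign times the log2 of the size and centred on each array's median. Spot pairs were averaged to 15732 elements and elements to 1 value per gene (elements with no gene or with several stayed separate). Gene symbols of the probe table were updated through a RefSeq table of assembly Release 6. Features needed values on 2 arrays in each of 9 groups (13296 of 13942 passed, all 38 members among them). limma 3.58.1 in R 4.3.3 fitted a dye intercept and both strain terms to all 36 arrays, with 2-sided moderated tests and Benjamini-Hochberg adjustment over all features. The steps were tested on simulated data. Direct arrays are those that hybridised both strains of a comparison; non-overlap compares their ratios between dye orders.

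Named were up to 10 called members per side and comparison, paralogs, RpL32, the stalk and ubiquitin fusion genes and the 5 largest dye offsets; of other lists, up to 4 called genes with the smallest p. Members, lists and tests were chosen with earlier results of these data known. Alternatives covered centring, the dye term, the arrays used, filters, elements, moderation, array weights, the place and parity of array numbers and each array left out. No sequence is printed, since none was among the files used here.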

Additional observations from a re-analysis of the deposited data

Results flagged for a closer look

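Within 40 groups of 4 arrays examined for a value far from the other 3, 3 stood apart. Chance gives about 1 in 20 where values are continuous and independent. The deposited values were stepped, so the rate here may differ. The median of the 38 ribosomal protein genes was 0.01 on array 39 of OregonR against itself, where the group averaged 0.05 ± 0.026 (SD, n = 4). It was 0.13 on array 47 of ap56f against itself, where the group averaged 0.08 ± 0.033 (SD, n = 4). RpL3 element 4 had -0.67 on array 48 of ap56f against itself, where the other 3 arrays had -0.14, -0.20 and -0.20. Causes were not tested.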

How the results depend on the processing

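Over 19 alternatives the median of the 38 genes was -0.08 to -0.05 in Antp73b against OregonR and -0.08 to -0.06 in Antp73b against ap56f, and in ap56f against OregonR it lay on both sides of 0, at -0.02 to 0.03. For the dye offset it was 0.08 to 0.16 over 17 alternatives. Called members were 19 to 27 for the dye offset. Over all features the dye offset was called in 8168 of 13296 in the main fit. With even-numbered arrays, which gave the 19, it was called in 5864 of 12097. In Antp73b against OregonR the 2 plus calls became 1 with quantile normalization, no dye term, 8 direct arrays, the first or last 2 arrays of each group, and even-numbered or odd-numbered arrays, and 1 to 3 leaving out an array (1 without array 51, 55, 61, 62, 63, 64, 71 or 73). The 5 minus calls became 2 with no dye term, 1 with 8 direct arrays or odd-numbered arrays, 8 with array weights, and 3 with the last 2 or even-numbered arrays, and 3 to 7 leaving out an array (3 without array 53). In ap56f against OregonR the 3 plus calls became 0 with 8 direct, the last 2 or even-numbered arrays, 1 with the first 2, and 2 to 3 leaving out an array. The 1 minus call became 0 with a trimmed mean, quantile normalization, no dye term, 24 arrays of 2 strains, 8 direct arrays, 1 array per group required, array weights, parity as a block, and each split of the arrays, became 2 without RpL3 element 4, and was 0 to 1 leaving out an array. In Antp73b against ap56f the 9 minus calls became 5 with no dye term, 4 with 8 direct, even-numbered or odd-numbered arrays and 1 with the last 2, and were 8 to 12 leaving out an array. Counts over all 13296 features moved with the settings too. Minus calls in Antp73b against OregonR numbered 1540 in the main fit, 1036 with no dye term and 850 with 8 direct arrays. Plus calls in ap56f against OregonR numbered 1123 in the main fit and 456 with 8 direct arrays. In Antp73b against ap56f, 981 were minus in the main fit, 600 with no dye term and 389 with 8 direct arrays. With the last 2 arrays 430 of 11831 were. Fewer arrays enter the direct and split settings, and the other causes were not tested.

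RpL3 in Antp73b against ap56f was 0.02 from the element with most values (limma adjusted p = 0.80), and the dye offset of RpL23 was -0.01 with the first 2 arrays (limma adjusted p = 0.85). Besides these 2, which lost their call and changed side, over all members, comparisons and settings 202 values lost their call and 106 gained one, against 7926 on the same side of the threshold. The call of RpLP1 in ap56f against OregonR was lost without array 39, 40, 41, 43, 44, 45, 47, 48, 49, 50, 51, 53, 54, 56, 57, 58, 59, 61, 63, 65, 66, 68, 69 or 73, and that of RpL22-like without 47, 51, 52, 53, 54, 56, 59, 60, 61, 62, 63, 66, 67, 69, 71, 72 or 73. That of RpLP2 was lost without 50, 51, 53, 54, 55, 58, 59, 65, 68, 71 or 72 in Antp73b against OregonR, and without 50, 51, 53, 56, 57, 58, 59, 65, 66, 67, 69, 71 or 72 in Antp73b against ap56f. No paired analysis was possible because array numbers are unique and pair no samples across groups.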
